A study of Mus musculus with 15 samples.

Results

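The comparison set Myc-CaP mouse prostate cancer cells carrying the DQD form of the transcription factor Twist1 against the same cells carrying the AQA form. It used the arrays whose titles name these forms, 3 of DQD and 3 of AQA, 6 of the 15 arrays in the series. Myc-CaP is an established cell line from a prostate tumour of a mouse with a Myc transgene, so every group also carried that transgene. The other groups, used to set levels, were cells with an empty vector (VEC), with wild-type Twist1 (WT) and with the F191G form, each with 3 arrays. Cells were transfected, put through selection, grown until confluent and harvested, and total RNA was hybridised to single-colour Affymetrix Mouse Gene 1.0 ST arrays. The labels call the Twist1 form a knock-in, while the protocol speaks of transfection, and they name neither the promoter nor the vector. They do not say whether replicates A, B and C came from separate cultures, so p-values reflect array-to-array spread only, part of which may be technical.

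Twist1 is a basic helix-loop-helix protein. It pairs with E proteins such as Tcf3, binds the short DNA motif called the E-box, and drives epithelial-mesenchymal transition, in which epithelial cells loosen their junctions and become motile. In studies of Twist1, the letters AQA and DQD are known as replacements of a threonine-glutamine-serine stretch in the helix-loop-helix region, with alanines that cannot be phosphorylated or with aspartates that carry a charge like that of phosphate. The labels give only the letters, and the direct contrast of DQD with AQA is read here as a description of how the expression of other genes differed between the forms.

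Values are deposited log2 values, and 19297 genes with a probe set of a single symbol were tested in a limma model with group and labelled batch as terms. Pairwise correlations among the 6 arrays ran from 0.993 to 0.998, and array medians from 6.31 to 6.42 over the series. The medians of DQD replicates A, B and C (6.31, 6.31 and 6.33) all lay below those of AQA (6.37, 6.40 and 6.35). WT replicate A stood apart from the rest, with a mean correlation of 0.980 with the other arrays against 0.993 to 0.995 for each of the others. It enters the shared estimate of the spread, so counts of called genes are given with and without it, and for a gene list where its larger count moved by over 1.5 times. Batch A held 2 AQA arrays (A and B) and 1 DQD array (A), and batch B held 1 AQA array (C) and 2 DQD arrays (B and C). In the deposited values the batch difference, with group kept, was at most 5e-09 in any of the 23811 probe sets, against up to 0.41 for replicate letters. A shift between batches had thus already been taken out of these values, a step that no label states.

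The Twist1 probe set read 6.87, 6.41 and 6.75 in AQA replicates A, B and C, and 6.62, 6.74 and 6.97 in DQD. These ranges overlapped, and the difference was 0.10 (SE 0.151, limma adjusted p = 0.788). The series design mentions scaling to the Twist1 level without details, so whether processing changed these values is not known. Which Twist1 RNA, endogenous or introduced, this probe set reads is not stated here, and its values check no label. The luminal keratin gene Krt8 had means of 7.67 in AQA and 7.63 in DQD, the luminal transcription factor gene Foxa1 11.20 and 11.18, and the basal keratin gene Krt5 5.65 and 5.75. Krt18, also a luminal keratin gene, was about as low as Krt5, at 5.67 in AQA and 5.61 in DQD. The basal genes Krt14 (5.56 and 5.55) and Trp63 (5.81 and 5.71) lay at a like level. Epcam, an epithelial surface marker, was low at 4.95 in both forms. The mesenchymal markers were divided. Vim, a filament gene, stood at 12.40 and 12.48 and Fn1, the fibronectin gene, at 12.78 and 12.86. Cdh2, the N-cadherin gene, was low at 4.13 in AQA and 4.09 in DQD. Markers of haematopoietic cells gave list means between 4.80 and 4.94 on the 6 arrays, and 0 of their 25 measured members passed the test.

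Of the 19297 genes, 5 passed the test at an adjusted p under 0.05, which is 0.0259%. The 4 genes higher in DQD (0.0207%) were Folh1, Atp6v1b2, Gtf2h1 and Dlg5, and the 1 lower gene (0.00518%) was Dcps. Without WT replicate A, 162 genes passed (0.84%), 102 higher in DQD (0.529%) and 60 lower (0.311%), with all 5 among them. Leaving out arrays of the contrast itself ended most calls. In limma, 0 genes passed without DQD replicate A, DQD replicate C, AQA replicate A or AQA replicate C, with 1994, 2791, 2111 and 2475 genes at an unadjusted p under 0.05. Without DQD replicate B 2 passed, and without AQA replicate B 4. After a further quantile normalization 2 passed, 1 higher and 1 lower. With all arrays, 2811 genes (14.6%) had an unadjusted p under 0.05, of which 1279 were higher in DQD (6.63%) and 1532 lower (7.94%). All 3 DQD arrays lay above all 3 AQA arrays for 2570 genes (13.3%) and below them for 2691 (13.9%).

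The levels of VEC and WT are set beside the forms below, from contrasts that share arrays. DQD against VEC called 80 genes higher (0.415%) and 77 lower (0.399%), and AQA against VEC 99 higher (0.513%) and 71 lower (0.368%). DQD against WT called 2272 higher (11.8%) and 2463 lower (12.8%), and AQA against WT 59 higher (0.306%) and 81 lower (0.42%). Without WT replicate A, limma called 273 and 343 for DQD against VEC, 255 and 178 for AQA against VEC, 1064 and 1054 for DQD against WT, and 0 and 0 for AQA against WT (2855 at an unadjusted p under 0.05).

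Folh1 encodes prostate-specific membrane antigen, a folate hydrolase, and showed the largest difference of the 5. It read 8.37, 8.97 and 8.88 in AQA replicates A, B and C, and 10.15, 9.88 and 10.02 in DQD. Every DQD array lay above every AQA array, and the rise in DQD was 1.27 on the log2 scale, or 2.41-fold (SE 0.162, limma adjusted p = 0.0179). The difference was 1.47 within batch A and 1.07 within batch B. Mean levels were 8.21 in VEC, 9.65 in WT and 9.64 in F191G. AQA was therefore the form nearest to VEC, with a Folh1 difference of 0.54 from it (adjusted p = 0.129), while DQD stood 1.81 above VEC (adjusted p = 0.000989). AQA lay below WT by 0.91 on the log2 scale (log2 difference -0.91, adjusted p = 0.0455), a call lost without WT replicate A (-0.92, adjusted p = 0.144). When arrays of the contrast were left out in turn, the difference ran from 1.10 to 1.38 and was called only when the array left out was AQA replicate B.

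Atp6v1b2, a subunit of the proton pump that acidifies lysosomes, followed a similar order of groups. Its values were 9.55, 9.72 and 9.52 in AQA and 10.20, 10.14 and 10.33 in DQD. The groups did not overlap, and DQD was higher by 0.63 (SE 0.0768, limma adjusted p = 0.0179), with 0.56 within batch A and 0.72 within batch B. VEC, at a mean of 9.71, lay near AQA, whereas WT (10.12) and F191G (10.06) lay near DQD.

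Dcps, the scavenger enzyme that clears cap remnants left by mRNA decay, was the gene that fell. It read 10.39, 10.28 and 10.36 in AQA and 9.79, 9.78 and 9.78 in DQD, so that the 3 DQD arrays were nearly equal. The log2 difference was -0.56, 1.47-fold lower in DQD (SE 0.0626, limma adjusted p = 0.0131), with -0.54 within batch A and -0.58 within batch B. The other groups fell between the forms, with means of 10.16 in VEC, 10.05 in WT and 9.85 in F191G.

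For Dlg5, a scaffold protein of cell junctions and polarity, it was AQA that stood apart from the other groups. AQA read 8.75, 8.82 and 8.82, and DQD 9.28, 9.16 and 9.22, a rise of 0.43 (SE 0.0621, limma adjusted p = 0.0477). VEC, WT and F191G had means of 9.10, 9.03 and 9.17, and AQA was lower than VEC by a called log2 difference of -0.31 (adjusted p = 0.0398). Gtf2h1, a subunit of the transcription and repair factor TFIIH, read 8.53, 8.49 and 8.47 in AQA against 8.97, 9.03 and 9.12 in DQD. The groups were apart on every array, and the rise was 0.54 (SE 0.0797, limma adjusted p = 0.0477). Here VEC (8.75) and WT (8.66) lay between the forms and F191G (8.98) near DQD. Neither Dlg5 nor Gtf2h1 was called when any 1 of the 6 arrays was left out, with differences from 0.38 to 0.45 for Dlg5 and from 0.51 to 0.60 for Gtf2h1.

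**Figure D1:**
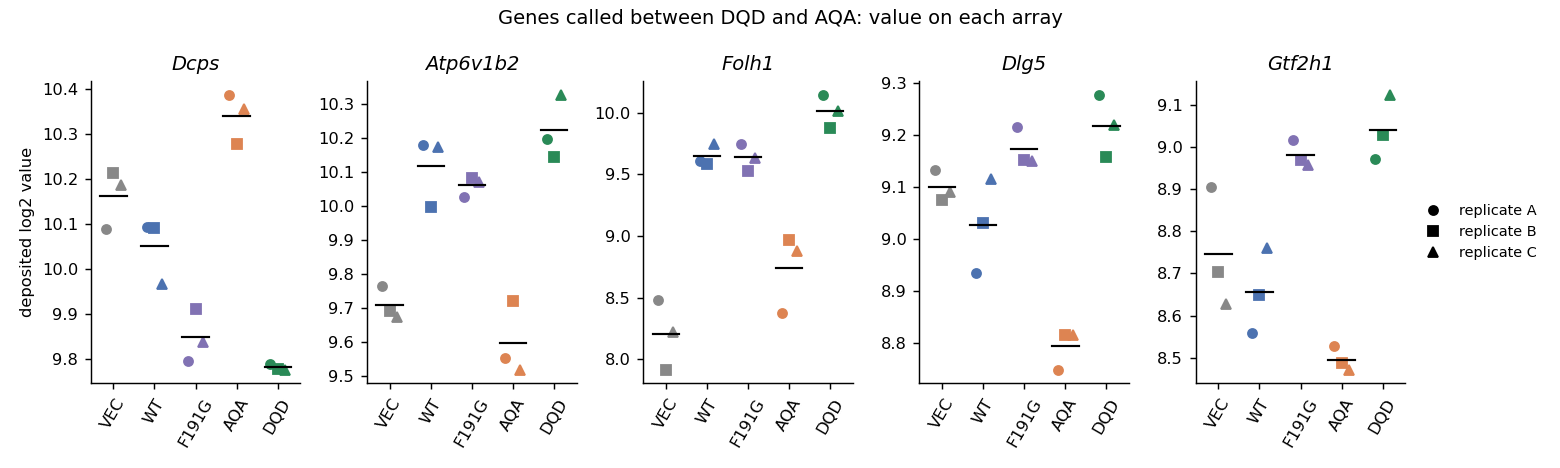
Deposited log2 value (vertical axis) of the 5 genes called between DQD and AQA on each of the 15 arrays, by group; symbols mark replicates A, B and C and black lines the mean of 3 arrays. DQD and AQA do not overlap for any of the 5, Dcps is lower in DQD, and for Folh1 the VEC and AQA means of 8.21 and 8.74 lie below those of the other groups.

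Because Twist1 binds E-boxes, the promoters of the called genes were read for the letters CANNTG, which are the same on both strands. The sequences are RefSeq promoters of the mouse build GRCm38.p6, from 250 bases before to 50 after each annotated start. All 4 called genes with an entry held the motif, as did 72.3% of the 32851 promoters listed, so its presence does not set these genes apart. No entry was matched for Atp6v1b2. Windows of 60 bases before the start are shown for these genes, 5′ to 3′ on the strand of the gene with the motif in capitals. The motif letters differ among them: the Gtf2h1 window holds the palindrome that Myc also binds, and the Dcps window the form bound by Snai and Zeb repressors. They lie on the minus strand at chr9:35176119-35176178 (Dcps), chr14:24245941-24246000 (Dlg5) and chr7:86775883-86775942 (Folh1), and on the plus strand at chr7:46796034-46796093 (Gtf2h1).
Dcps: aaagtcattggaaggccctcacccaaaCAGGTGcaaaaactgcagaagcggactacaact
Dlg5: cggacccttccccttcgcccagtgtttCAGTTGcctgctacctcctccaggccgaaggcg
Folh1: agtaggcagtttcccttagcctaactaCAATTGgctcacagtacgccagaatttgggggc
Gtf2h1: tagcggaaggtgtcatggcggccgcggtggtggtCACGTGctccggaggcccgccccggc

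The next genes in order of p did not pass with all 15 arrays and did pass without WT replicate A. On the side higher in DQD these were Tgfbrap1, a vesicle tethering protein that binds TGF-beta receptors (0.50, adjusted p = 0.0514, and 0.0127 without WT replicate A), Trim26, a tripartite motif ubiquitin ligase (0.42, 0.0514 and 0.0229), the myelin lipid carrier gene Pmp2 (0.71, 0.0514 and 0.0185) and Elfn1, a synaptic adhesion protein (0.57, 0.0523 and 0.0166). By mean level Pmp2 was among the dimmest 33.3% of genes, and within that range it was high in DQD alone. It read 5.51, 5.50 and 5.25 there, against 4.84, 4.76 and 4.54 in AQA. Its means were 4.90 in VEC, 4.69 in WT and 4.87 in F191G. Elfn1 showed the reverse layout, low in AQA alone, at 7.92, 8.22 and 8.10, with means of 8.54 in VEC, 8.63 in WT, 8.56 in F191G and 8.65 in DQD.

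On the side lower in DQD, Pjvk, a peroxisomal protein needed for hearing, had the largest log2 difference among the named genes, -1.49 (SE 0.234, limma adjusted p = 0.0514, and 0.0191 without WT replicate A). It read 6.03, 4.99 and 5.70 in AQA and 4.03, 4.11 and 4.12 in DQD, with means of 4.38 in VEC, 4.57 in WT and 4.38 in F191G. AQA was thus the form with the higher values, and its difference from VEC was called (1.19, adjusted p = 0.0359). By mean level Pjvk, and Ypel2 named below, were among the dimmest 33.3% of genes. In that range 552 genes were lower in DQD and 118 higher at an unadjusted p under 0.05. Cyp39a1, an oxysterol hydroxylase, was likewise high in AQA, at 6.81, 6.58 and 6.93 against 6.23, 6.08 and 6.08 in DQD and 6.12 in VEC (-0.64, adjusted p = 0.0604). Nnmt, which methylates nicotinamide, differed by -0.52 (adjusted p = 0.0514), and Ypel2 by -0.70 (adjusted p = 0.0546). In both, WT lay with AQA, at 6.15 for Nnmt and 5.99 for Ypel2, and VEC, at 5.85 and 5.11, was closer to DQD. Cdc42ep5, an effector of the small GTPase Cdc42, had the same layout and differed by -1.13 (adjusted p = 0.0634), with 7.95, 7.47 and 8.07 in AQA and 6.54, 6.90 and 6.68 in DQD. The syntrophin gene Sntb1 (-0.49) and the sphingosine 1-phosphate receptor gene S1pr2 (-0.37) both had an adjusted p of 0.0604.

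The widest group difference by size was in genes that interferon induces. Type I interferon acts through a complex with Stat2 and Irf9 on a promoter motif, the interferon-stimulated response element, and its targets restrict viruses. Of 50 listed genes 44 were measured, and 0 passed the test with all arrays, the smallest adjusted p being 0.119 for Xaf1. At an unadjusted p under 0.05, 30 were higher in DQD and 2 lower, beside 6.63% and 7.94% of all genes. Their median difference was 0.78, against -0.02 over all genes. With array weights it was 0.42, with 15 higher and 5 lower, and 1 called higher against 3 called lower. With 1 of the 6 arrays left out, 17 to 32 were higher (fewest without AQA replicate C) and the median ran from 0.58 to 1.05. Within AQA, replicate A stood apart from replicates B and C on this list. Relative to the VEC mean, the mean of the 44 genes was 1.13, 0.13 and 0.24 in AQA replicates A, B and C, and 0.89, 1.45 and 1.37 in DQD. AQA replicate A therefore lay above DQD replicate A. VEC arrays read 0.40, -0.11 and -0.30, WT arrays 1.09, 1.39 and 1.16, and F191G arrays 0.94, 1.34 and 1.31, so that AQA replicates B and C were the only arrays with a Twist1 form within the range of the VEC arrays.

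**Figure D2:**
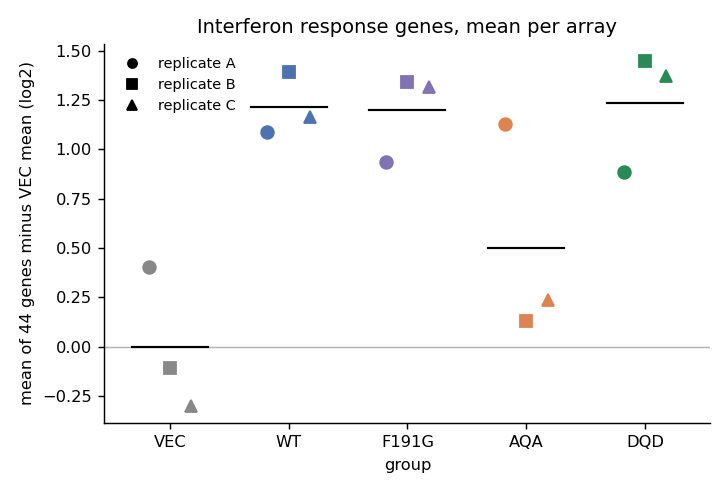
Mean of the 44 measured interferon response genes on each array minus the VEC mean (vertical axis, log2), by group; symbols mark replicates A, B and C and black lines the group mean. AQA replicates B and C, at 0.13 and 0.24, lie among the VEC arrays, and AQA replicate A, at 1.13, lies among the WT, F191G and DQD arrays.

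Counts by single gene are given next. They restate the split seen in the mean of the same genes and are no separate support for it. AQA replicate A lay above the lowest DQD array for 32 of the 44 genes, 72.7% against 74.9% of all genes. AQA replicate A was the highest AQA array for 40 of the 44 genes, 90.9% against 31.9% of all genes, and both AQA replicates B and C lay below all DQD arrays for 32 of 44, 72.7% against 17.4%. All 3 AQA arrays lay below all 3 DQD arrays for 12 of 44 (27.3%, against 13.3% of all genes). Without AQA replicate A the median difference was 1.05, with 31 members higher at an unadjusted p under 0.05, and 0 passed. Within batch A, which holds that array, the median was 0.34, and within batch B 1.10. In a model of batch B alone, with 2 DQD arrays, 1 AQA array and the spread taken from the other groups, 20 of the 44 were called higher, of 26 called higher (0.135%) and 3 called lower (0.0155%) among all genes, 0.15% in both directions. In the model of batch A alone, with 1 DQD and 2 AQA arrays, 0 of the 44 were called, and 0 were higher and 3 lower at an unadjusted p under 0.05. Each model assumes that the form with a single array varies like the others. Without WT replicate A 1 member passed, the ubiquitin ligase gene Herc6, with a rise of 1.13 (adjusted p = 0.0435).

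Among the antiviral effectors, Ifit1, which binds viral RNA lacking a proper cap, read 6.13, 3.85 and 4.24 in AQA and 6.01, 7.14 and 7.18 in DQD. Its difference was 2.03 (SE 0.569, limma adjusted p = 0.155), with 1.01 within batch A and 2.92 within batch B. Mx2, a dynamin-like antiviral GTPase, read 4.95, 2.89 and 3.26 against 5.09, 5.81 and 5.58, a difference of 1.79 (adjusted p = 0.146) without overlap of the groups. The oligoadenylate synthetase genes, whose products switch on RNA decay, differed by 1.82 for Oas2, 1.49 for Oas3 and 1.70 for Oasl2. Of the regulators of the pathway, Irf7, the factor that amplifies interferon production, read 6.62, 4.28 and 4.49 in AQA and 6.46, 7.42 and 7.61 in DQD, a difference of 2.03 (adjusted p = 0.171). Irf9, the DNA-binding partner of Stat2, differed by 0.87 (adjusted p = 0.135) and the feedback protease gene Usp18 by 1.95 (adjusted p = 0.22). Stat2 differed by 0.32 (adjusted p = 0.483), and the sensor gene Ifih1 by -0.08 (adjusted p = 0.538).

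The Ifit3 genes ran the other way. Ifit3 read 8.70, 6.81 and 7.77 in AQA and 6.23, 7.91 and 6.99 in DQD, overlapping ranges with a difference of -0.72 (SE 0.537, limma adjusted p = 0.565), and Ifit3b differed by -1.06 (adjusted p = 0.346). Both forms stood well above the VEC mean of 4.27 for Ifit3, DQD by 2.77 (adjusted p = 0.0474) and AQA by 3.49 (adjusted p = 0.0176). Ifit3 and Ifit3b are near-identical copies, and how far their probe sets read each other's RNA is not known here. Genes for antigen processing, which interferon also induces, had a median of 0.06 over 17 members, with 4 higher and 0 lower at an unadjusted p under 0.05 and 0 passing. Without DQD replicate C, AQA replicate B or AQA replicate C, 2 were higher. The immunoproteasome subunit gene Psmb10 had the smallest p of these (0.37, SE 0.0900, limma adjusted p = 0.121), and its DQD arrays all lay above its AQA arrays.

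**Figure D3:**
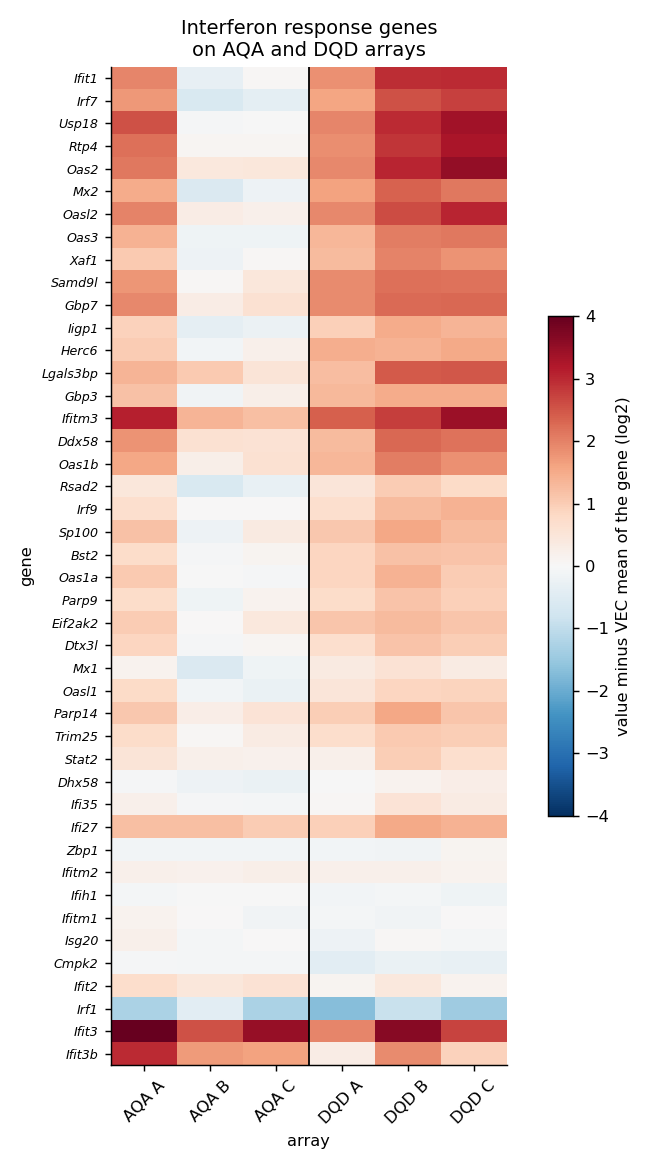
Deposited log2 value minus the VEC mean of the gene (colour, log2) for the 44 interferon response genes (rows, ordered by DQD minus AQA) on the 3 AQA and 3 DQD arrays (columns). AQA replicate A is coloured like the DQD arrays for most rows, and Ifit3 and Ifit3b at the bottom are high on all AQA arrays.

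The promoters of this list were read for the core of the interferon-stimulated response element, taken as 2 copies of GAAA with any 2 bases between them, or as 2 copies of TTTC so spaced where it lies on the other strand. The core is in capitals. Of 32 measured members with a RefSeq entry, 15 held it (46.9%), against 3.99% of all 27025 genes with an entry. Of the 10 members at least 2-fold higher in DQD with an entry, 4 held it (40%), so its presence did not set them apart within the list. The 60-base windows of Ifit1 (plus strand, chr19:34640770-34640829) and Oas3 (minus strand, chr5:120777700-120777759), both among these 4, are shown. Ifit1 carries the core at 2 places.
Ifit1: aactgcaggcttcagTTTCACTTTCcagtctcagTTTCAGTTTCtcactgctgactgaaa
Oas3: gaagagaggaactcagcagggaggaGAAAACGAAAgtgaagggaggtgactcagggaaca

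At least 2-fold differences, with no test, were found for 24 genes higher in DQD (0.124%) and 12 lower (0.0622%). Of the 24, 15 are on the interferon list, and the other 9 were Krt6a, Havcr2, Folh1, Phf11d, Ccl5, Scarna13, Ddx60, Smad7 and Irgm1. Phf11d, Ddx60 and Irgm1 are also known as interferon-induced, although the list does not hold them. Of the 12, 11 are not on that list: Pjvk, Gm12888, Selenbp1, Igfbp5, Ddit4, Lpin1, Zcchc24, Kdm7a, Cdc42ep5, Dgka and Pdcd4. Apart from Folh1, Pjvk, Cdc42ep5, Krt6a, Ccl5, Smad7, Igfbp5, Ddit4 and Pdcd4, these names were chosen after their values were seen.

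The genes lower in DQD have varied known roles. Pdcd4, an inhibitor of translation initiation, read 8.76, 8.76 and 8.98 in AQA and 7.66, 8.01 and 7.61 in DQD, a difference of -1.07 (SE 0.239, limma adjusted p = 0.108, and 0.0373 without WT replicate A). Its means were 7.25 in VEC, 9.63 in WT and 7.74 in F191G. Ddit4, a stress-induced inhibitor of mTORC1, read 8.60, 8.51 and 8.41 against 7.09, 7.56 and 7.15 (-1.24, adjusted p = 0.136), with 8.08 in VEC and 9.16 in WT. Selenbp1, a methanethiol oxidase, read 8.74, 8.34 and 8.51 against 7.03, 7.26 and 6.89 (-1.47, adjusted p = 0.094). The diacylglycerol kinase gene Dgka differed by -1.10, the histone demethylase gene Kdm7a by -1.16, the phosphatidate phosphatase gene Lpin1 by -1.24 and the insulin-like growth factor binding protein gene Igfbp5 by -1.42. For Pdcd4, Dgka, Kdm7a and Selenbp1 the WT mean was the highest of the 5 groups, AQA came next, and DQD lay within 0.51 of VEC. For Selenbp1 the rank of WT came with WT replicate A, at 9.23. Its WT replicates B and C, at 8.41 and 8.45, lay below the AQA mean of 8.53.

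Counted over the 12 lower genes, the WT mean was nearer to AQA than to DQD for 11, the VEC mean nearer to DQD for 10 and the F191G mean nearer to DQD for 10. Over the 24 higher genes, VEC was nearer to AQA for 21, WT nearer to DQD for 19 and F191G nearer to DQD for 23, with 15 of the 24 on the interferon list. Over wider sets these shares were lower. For VEC in the lower genes and WT in the higher genes, the form that was nearer for most genes turned from DQD to AQA. Of the 1532 genes lower in DQD at an unadjusted p under 0.05, VEC was nearer to DQD for 34.1%, F191G nearer to DQD for 48.8% and WT nearer to AQA for 85.0%. Of the 1279 higher genes, VEC was nearer to AQA for 49.6%, WT nearer to DQD for 31.7% and F191G nearer to DQD for 69.7%. All WT means in these counts and shares include WT replicate A, the array that stood apart. What they would be without it was not tested. AQA, VEC and WT share their batch make-up (2 arrays in A and 1 in B), as do DQD and F191G (1 and 2). The part of that make-up in these orders was not tested.

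**Figure D4:**
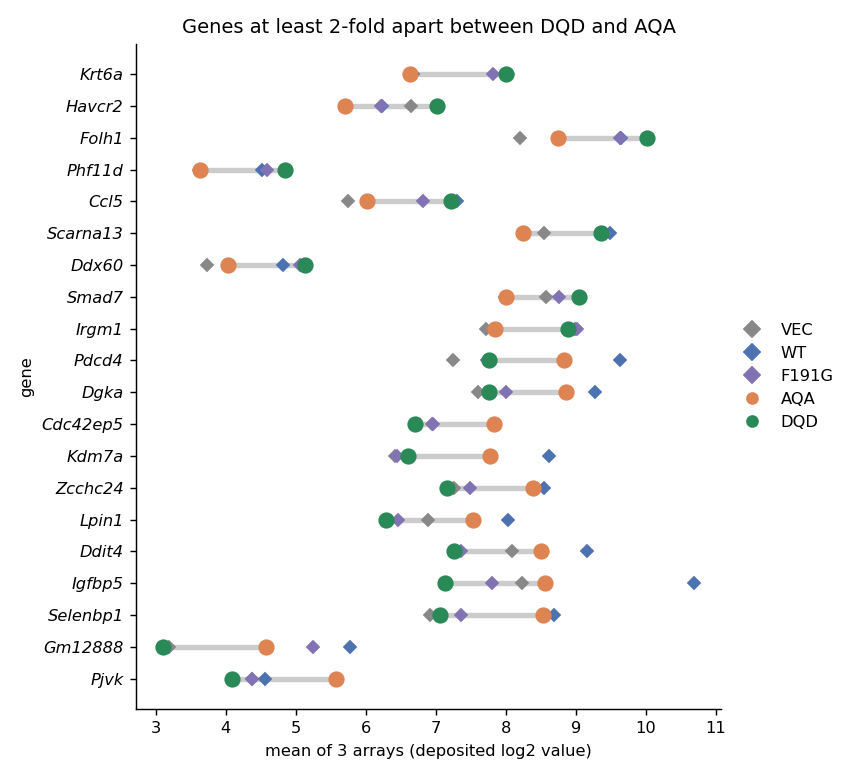
Mean of 3 arrays (horizontal axis, deposited log2 value) for the genes at least 2-fold apart between DQD and AQA that are not on the interferon list, the 9 higher in DQD above and the 11 lower below; circles are AQA and DQD, diamonds the other groups. For Pdcd4, Dgka, Kdm7a, Lpin1, Ddit4 and Igfbp5 the WT diamond lies beyond AQA, on the side away from DQD. The WT means include WT replicate A, and for Lpin1 WT replicate B, at 7.32, lay below the AQA mean of 7.53.

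Of the higher genes outside the interferon list, Krt6a, a keratin of stressed and proliferating epithelium, read 6.30, 6.83 and 6.77 in AQA and 8.32, 7.78 and 7.89 in DQD (1.36, SE 0.321, limma adjusted p = 0.118, and 0.0409 without WT replicate A). Its VEC mean was 8.03 and its WT mean 6.68, so that DQD lay with VEC and AQA with WT. Smad7, the inhibitor that TGF-beta signalling induces against itself, read 7.88, 8.03 and 8.12 against 9.37, 8.83 and 8.96 (1.04, adjusted p = 0.151, and 0.0304 without WT replicate A). The immune checkpoint receptor gene Havcr2 read 5.68, 5.54 and 5.89 against 7.09, 7.06 and 6.91 (1.32, SE 0.485, adjusted p = 0.245). Scarna13, a small RNA that guides modification of spliceosomal RNAs, read 8.03, 8.66 and 8.07 against 9.27, 9.39 and 9.42 (1.11, adjusted p = 0.121). The chemokine gene Ccl5 differed by 1.19, and its AQA replicate A, at 6.79, lay near DQD replicate A, at 6.88, as for the interferon genes.

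The remaining lists are given by their counts of members at an unadjusted p under 0.05, since 0 members passed with all arrays in 24 of the 25 lists, and Folh1 alone passed in the list of androgen response and prostate luminal genes. All of these counts stand beside 6.63% of all genes higher and 7.94% lower. That list of 38 genes had 3 higher and 1 lower, with a median of 0.00309, and 5 higher without WT replicate A. Many of the list counts rested on single arrays. Where leaving out 1 array moved the larger count of a list by over 1.5 times, the counts without it follow. Counts with each array centred on its median, called median centring, are added for some lists.

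In growth control, 48 of 52 measured cell cycle genes had a difference above 0, with a median of 0.18, yet 1 was higher at an unadjusted p under 0.05, the kinase gene Cdk2 (0.35, adjusted p = 0.269). Without WT replicate A 10 were higher, and without DQD replicate A, AQA replicate B or AQA replicate C 0 were. The cell cycle median was 0.43 within batch A and 0.03 within batch B, so that most of the shift lay in batch A. Of 37 Myc targets and ribosome biogenesis genes, 4 were higher and 1 lower, and the median was 0.13. Without WT replicate A 13 were higher and 2 lower, and without DQD replicate A 2 and 2. With median centring 10 were higher and 1 lower. Myc itself read 9.46, 9.86 and 9.66 in AQA and 10.23, 10.33 and 10.25 in DQD (0.61, SE 0.154, limma adjusted p = 0.136), without overlap, and it is not stated whether the probe set reads the Myc transgene. Mxi1, which competes with Myc for its partner Max, differed by -0.33 (adjusted p = 0.117). The ribosome biogenesis gene Bop1 differed by 0.33 (adjusted p = 0.227, and 0.0493 without WT replicate A). Of 32 p53 targets and cell cycle inhibitors, 7 were higher and 8 lower, with the death receptor gene Eda2r at -0.81 (adjusted p = 0.161) and the nuclease gene Aen at 0.37 (adjusted p = 0.2). The higher p53 targets numbered 2 without DQD replicate B, 3 without AQA replicate A, and 4 without DQD replicate A or AQA replicate B. The lower ones numbered 2 without DQD replicate C, 3 without DQD replicate A or AQA replicate C, and 4 without AQA replicate B. With median centring 8 of the p53 targets and inhibitors were higher and 5 lower.

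Genes of epithelial-mesenchymal transition, the process Twist1 is known for, did not pass the test with all arrays. At an unadjusted p under 0.05, of 37 mesenchymal factors and regulators 2 were higher and 4 lower (median 0.02), and of 47 epithelial junction and keratin genes 4 were higher and 7 lower (median -0.07). The lower mesenchymal genes were 2 without AQA replicate B or AQA replicate C. Of the epithelial genes 0 were lower without DQD replicate A and 3 without AQA replicate B, while 1 was higher without DQD replicate B or AQA replicate A and 2 without DQD replicate C or AQA replicate B. With median centring the balance of both lists turned. Then 6 epithelial genes were higher and 2 lower (median -0.0084), and 5 mesenchymal genes were higher and 1 lower. Zeb2, a repressor of E-cadherin, read 8.35, 8.31 and 8.34 in AQA and 8.59, 8.58 and 8.52 in DQD (0.23, SE 0.0553, limma adjusted p = 0.123). Cdh1, the E-cadherin gene, differed by -0.16 (SE 0.0635, adjusted p = 0.285), Snai1 by -0.15 (adjusted p = 0.328), Snai2 by 0.13 (adjusted p = 0.577) and Zeb1 by 0.02 (adjusted p = 0.928). Cdh2, the N-cadherin gene, differed by -0.05 (adjusted p = 0.798) and Vim by 0.08 (adjusted p = 0.767). The fibronectin gene Fn1 differed by 0.08 (adjusted p = 0.555). The signs of Snai2, Zeb1, Cdh2 and Vim turned under 1 or more alternatives. The desmosome genes Jup, at -0.77 (adjusted p = 0.201), and Pkp2, at -0.54 (adjusted p = 0.179), were lower on all DQD arrays than on any AQA array.

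Among adhesion and matrix genes, 6 of 36 integrin and focal adhesion genes were higher and 1 lower (median 0.09), and 3 were higher without DQD replicate A or AQA replicate A. With median centring 12 were higher and 0 lower. Itga5, the fibronectin receptor subunit, read 9.70, 9.95 and 9.96 in AQA and 10.76, 10.35 and 10.49 in DQD (0.66, adjusted p = 0.143, and 0.0409 without WT replicate A). Of 47 collagens and matrix proteins, 2 were higher and 9 lower (median -0.09), 5 lower without AQA replicate B and 14 without DQD replicate C, with the fibril-linking collagen gene Col12a1 at 0.61 (adjusted p = 0.136, and 0.0434 without WT replicate A). With median centring 3 of the collagens and matrix proteins were higher and 5 lower. Of 41 matrix proteases and inhibitors, 1 was higher and 5 lower (median -0.04), and 2 and 4 with median centring (median 0.02). The metalloprotease gene Mmp19 read 5.90, 5.80 and 5.77 against 5.38, 5.52 and 5.48 (-0.36, adjusted p = 0.0794, and 0.0352 without WT replicate A), and Adamts9, another secreted protease gene, differed by -0.52 (adjusted p = 0.123).

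In signalling, 6 of 49 TGF-beta and BMP genes were higher and 1 lower (median -0.02), with 5 lower without DQD replicate C or AQA replicate C and 3 without DQD replicate A. Beside Smad7, these were led by the BMP receptor gene Acvr1, at 7.52, 7.66 and 7.61 in AQA and 7.93, 7.87 and 7.97 in DQD (0.33, adjusted p = 0.108). Id1, a helix-loop-helix inhibitor that BMP signalling induces and that sequesters E proteins, read 8.44, 8.79 and 8.82 against 9.24, 9.29 and 9.21 (0.56, adjusted p = 0.164), and Id2 differed by 0.26 (adjusted p = 0.179). Over the 43 basic helix-loop-helix, E protein and Id genes, 3 were higher and 4 lower (median -0.04), with 1 lower without AQA replicate B and 2 without DQD replicate B. Of 55 Wnt and Notch genes 4 were higher and 3 lower (9 lower without AQA replicate C), with Lfng, which glycosylates Notch, at 0.37 (adjusted p = 0.114). Of 54 cytokine and NF-kB genes 4 were higher and 3 lower (7 higher without DQD replicate A), among them the prostaglandin synthase gene Ptgs2 at 0.65 (adjusted p = 0.114) and the macrophage growth factor gene Csf1 at 0.45 (adjusted p = 0.155). The 42 Hox genes and cofactors gave 3 higher and 3 lower (0 and 1 without DQD replicate A, 0 and 2 without AQA replicate A, 1 and 2 without DQD replicate C, 5 and 3 without DQD replicate B), with Hoxd3 at -0.29 (adjusted p = 0.108). The 58 growth factor and receptor genes gave 0 higher and 6 lower (3 lower without DQD replicate A, 2 without AQA replicate A). The 38 PI3K, Akt and FoxO genes gave 0 and 4 (2 lower without AQA replicate C), with the FoxO target Sesn3 at -0.47 (adjusted p = 0.174) and the insulin receptor substrate gene Irs1 at -0.33 (adjusted p = 0.175).

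In metabolism and stress, 11 of 43 hypoxia, glycolysis and angiogenesis genes were lower and 1 higher, with a median of -0.13. The lower ones were 6 without AQA replicate C, 7 without AQA replicate A and 18 without AQA replicate B. The glycolytic enzyme gene Aldoc read 8.48, 8.06 and 8.33 in AQA and 7.20, 7.75 and 7.32 in DQD (-0.87, SE 0.189, limma adjusted p = 0.108, and 0.0379 without WT replicate A), with all DQD arrays below all AQA arrays. The neuronal-type glucose transporter gene Slc2a3 differed by -0.27 (adjusted p = 0.146) and the pyruvate dehydrogenase kinase gene Pdk1 by -0.66 (adjusted p = 0.2). The angiogenic factor gene Vegfa differed by -0.36 (adjusted p = 0.291). Of 38 unfolded protein and integrated stress response genes, 1 was higher and 6 lower (median -0.11; 1 lower without DQD replicate A, 2 without DQD replicate C and 3 without AQA replicate A), including the stress transcription factor gene Xbp1 at -0.43 (adjusted p = 0.252). Of 31 cholesterol and fatty acid synthesis genes, 1 was higher and 4 lower (median -0.13), including the desaturase gene Scd1 at -0.32 (adjusted p = 0.2).

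The oxidative stress and detoxification list, with 46 members, was divided, 5 higher and 6 lower. Without WT replicate A 8 were higher, and without DQD replicate A 3 were lower. Hmox1, the haem oxygenase that oxidative stress induces, read 7.55, 7.55 and 7.43 in AQA and 7.92, 7.99 and 7.83 in DQD (0.40, SE 0.0705, limma adjusted p = 0.0612, and 0.0322 without WT replicate A). The thioredoxin reductase gene Txnrd1 differed by 0.44 (adjusted p = 0.166, and 0.0365 without WT replicate A). The glutathione transferase genes ran the other way, Gstm5 by -0.54 (adjusted p = 0.136) and Gsta4, named after its values were seen, by -0.68 (adjusted p = 0.212, and 0.0479 without WT replicate A). AQA values of Gstm5, at 8.83, 8.41 and 8.79, were above those of every DQD array, the highest of which was 8.25.

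**Figure D5:**
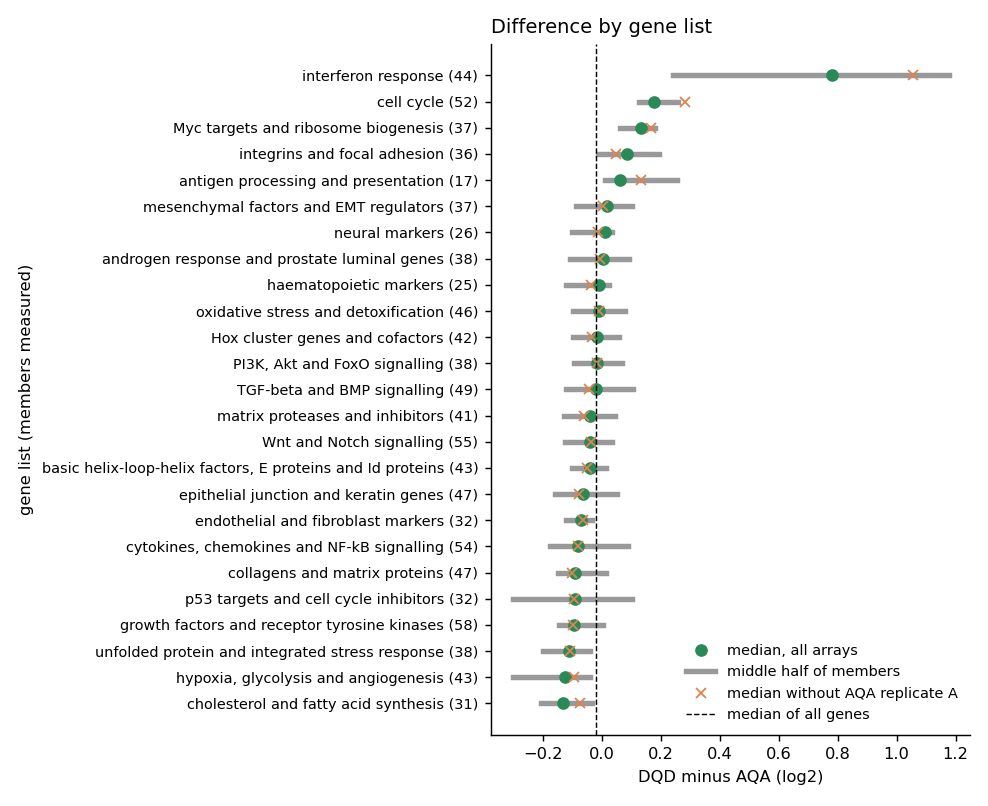
Difference between DQD and AQA (horizontal axis, log2) for 25 gene lists, with the number of measured members; green points are medians, grey bars the middle 50% of members, crosses the median without AQA replicate A, and the dashed line the median of all genes. The interferon list, with a median of 0.78, lies farthest from the median of all genes, at -0.02, and its median is 1.05 without AQA replicate A.

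Counts for lists of other cell types were small. Of 26 neural markers 1 was higher and 1 lower, of 25 haematopoietic markers 0 and 1, and of 32 endothelial and fibroblast markers 0 and 2. Leaving out single arrays gave up to 3 lower neural markers (without DQD replicate C), 3 lower haematopoietic markers (without DQD replicate A, DQD replicate C or AQA replicate C) and 5 lower endothelial and fibroblast markers (without DQD replicate C), and without WT replicate A 2 neural markers were higher and 2 lower. The direction of differences also moved with signal level. Over the 6433 dimmest genes the median difference was -0.05, with 118 higher and 552 lower at an unadjusted p under 0.05, and over the 6432 brightest 0.05, with 805 higher and 334 lower. All 5 called genes were among the brightest. With each array centred on its median, the median over all genes moved from -0.02 to 0.04, and 28 genes were called, 24 higher and 4 lower. The part of signal level in single differences was not tested.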

How the data were processed

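Gene expression was measured on 15 single-colour arrays, 3 for each of VEC, WT, F191G, AQA and DQD, grouped by the labels. The deposited series table holds log2 values of 23811 probe sets, which the authors made with RMA and examined with limma, per the submitters' processing notes, with versions not given in the sources used here. Scaling to the Twist1 level is also mentioned in the series design, without details. The values carry no batch difference once group is kept, and no label or header records that step. A model without a batch term therefore counts too many degrees of freedom.

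Of the probe sets, 20852 carry 1 symbol in the platform annotation, 1440 several and 1519 are not listed. Where a symbol had several, the brightest on average was kept (a choice in 846 genes), which left 19297 genes, without a filter on dim genes. Linear models with group and batch were fitted to all 15 arrays in limma 3.58.1 (R 4.3.3; 9 residual and 3.93 prior degrees of freedom), and p-values were adjusted by Benjamini-Hochberg over all genes, with 0.05 as the threshold. Differences are DQD minus AQA on the log2 scale with their standard error (SE). The script was tested on simulated data. All columns of the table were used (0 left out). Precision is limited by the number of arrays.

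The comparison, the 25 gene lists (963 different genes measured) and the tests were chosen with earlier results of these data known. Genes named are the called ones, then those with the smallest p until 8 are named per direction, up to 4 members of each list with the smallest p, and Twist1, Cdh1, Cdh2, Vim, Fn1, Snai1, Snai2, Zeb1, Zeb2, Folh1, Ifit3, Hoxa9 and Myc; genes with predicted or clone names were passed over, and other names, chosen after their values were seen, are marked or are further members of the interferon and marker lists. Alternatives were a block on replicate letters, dropping batch, fewer arrays in the model, other normalizations, a filter on dim genes, all probe sets, other variance models, array weights, the Twist1 value as a covariate, each batch alone and leaving out arrays in turn. For the contrasts with VEC and WT, a fit lacking WT replicate A was added once the data had been seen. Figures were drawn with matplotlib 3.10.9.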

Additional observations from a re-analysis of the deposited data

How the results depend on the processing

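The counts of called genes depended on the model more than the differences did. The 5 called genes kept their direction under all 20 alternatives. They were picked on these same values and their DQD and AQA arrays did not overlap. Leaving out arrays could therefore hardly turn their direction, and that it was kept is no separate support. Against 5 called genes (4 higher, 1 lower), the model without batch gave 156 (93 and 63), the model without WT replicate A 162 (102 and 60), the 6 arrays alone 21 (10 and 11), median centring 28 (24 and 4), quantile normalization again 2 (1 and 1), genes without the dimmest 33.3% 16 (14 and 2), all probe sets 3 (2 and 1), a variance trend with robust moderation 7 (5 and 2), array weights 1670 (871 and 799), Twist1 as a covariate 4 (2 and 2), batch B alone 29 (26 and 3) and batch A alone 0 (1229 at an unadjusted p under 0.05). Leaving out 1 of the 6 arrays gave 0 to 4 called genes, 0 to 2 higher and 0 to 2 lower.

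The replicate letter as a block gave 0 called genes beside the batch term (2064 at an unadjusted p under 0.05) and 3 (2 higher, 1 lower) in its place. Correlations of the deviations from group means were 0.11, 0.085 and -0.28 for same-lettered arrays, and from -0.32 to 0.29 for arrays of different letters. Deviations within a group of 3 arrays are tied to each other, so these values cannot tell whether the letters pair the samples.

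Under alternatives Folh1 ran from 1.07 to 1.48 and was called in 12 of 20, Dcps from -0.62 to -0.50 in 13, Atp6v1b2 from 0.56 to 0.72 in 11, Gtf2h1 from 0.46 to 0.60 in 6 and Dlg5 from 0.37 to 0.50 in 6. Hoxa9 differed by 0.09 (adjusted p = 0.722) and turned to -0.0041 in batch B alone. Signs also turned for Twist1 (-0.022 with array weights, -0.022 in batch A, and -0.026 to 0.22 when 1 array was left out, lowest without AQA replicate B), Zeb1 (-0.031 with array weights, -0.078 in batch A, -0.0042 without DQD replicate B, and -0.014 without AQA replicate C to 0.074 without DQD replicate A), Vim (-0.0099) and Snai2 (-0.027) in batch B, Klk1b8 (-0.044) and Pdgfra (0.10) in batch A, and Cdh2 (0.0095) with median centring, each from a difference that had not passed. The causes were not tested.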
